A study of Mus musculus with 868 samples.

Results

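The 50 mouse genes whose symbols begin with Psma to Psmg and a number were followed through 868 libraries of 24 tissues. They were chosen by symbol alone from 24421 gene symbols in the count tables. Their products are the subunits of the proteasome, its activators and an inhibitor, and the chaperones that assemble it. 1 of the 50, Psmc3ip, matches by name only: it encodes a partner of the meiotic recombinases and is no subunit. Psme2b is a near-identical copy of Psme2, and reads of the 2 genes cannot be separated with certainty.

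The proteasome is the protease that degrades proteins tagged with ubiquitin. Its 20S core is a barrel of stacked rings, with outer alpha rings that gate the entrance and inner beta rings that hold the catalytic sites of Psmb5, Psmb6 and Psmb7. In immune cells and under interferon these 3 subunits are replaced by Psmb8, Psmb9 and Psmb10, which forms the immunoproteasome and favours peptides for antigen presentation, and in the cortical epithelium of the thymus Psmb11 takes the place of Psmb5 or Psmb8. The 19S cap binds ubiquitin and unfolds the substrate with its ATPases, and in skeletal muscle proteasome and ubiquitin ligase genes are known to rise together during wasting.

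All mice carried the strain label C57BL/6N, and each of the 18 treatments was profiled in the 24 tissues by sequencing of transcript 3′ ends. Most pairs of treatment and tissue had 2 libraries. Brain had 4 for asenapine, and jejunum had 4 for sofosbuvir. The controls were untreated mice (Untreated), mice labelled with 5% sucrose (Sucrose) and mice labelled with 0.5% carboxymethyl cellulose and 0.25% Tween80 (CMCTween). The 15 drugs were APAP (acetaminophen, labelled 2 h), sofosbuvir, alendronate, risedronate, asenapine, lurasidone, olanzapine, aripiprazole, cisplatin, clozapine, Dox (labelled 2 mg/mL), EMPA (labelled oral, 2 weeks), lenalidomide, Repatha and teriparatide. The labels give no other dose or time, no sex, no age and no vehicle for a drug, and they do not say that replicates were separate animals, so p-values measure the spread between these libraries only. Libraries were compared within 3 sets that share an overall expression pattern. Set A held Untreated, Sucrose, APAP and sofosbuvir, set B the bisphosphonates alendronate and risedronate with asenapine, lurasidone and olanzapine, and set C CMCTween with the other 8 drugs. These sets rest on expression values and not on a label, and differences between sets cannot be told apart from the drugs.

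Libraries held 451154 to 12811780 counts (median 877592), and the 48 Untreated libraries, with 2875950 to 12811780, were the deepest as a group. Of 72 tissue markers, 68 were highest in their own tissue. Both aripiprazole lung libraries held 2047 and 1751 CPM (counts scaled by the library total to a common size) of germ cell markers, against at most 334 in any other library outside testis. In jejunum, sofosbuvir libraries 3 and 4 stood apart from libraries 1 and 2, and the main values there are given with and without them. Levels below are CPM of the column total, and since 3′ counting does not scale with length, levels of different genes are not compared as molecules. Differences are log2 fold changes ± SE after trimmed-mean (TMM) scaling, and a gene was called at an adjusted p under 0.05. In bulk tissue, fewer cells of a type and less RNA per cell cannot be told apart.

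Promoters of 42 of the 50 genes were found in RefSeq (GRCm38.p6), as windows of 250 bases before to 50 bases after the annotated start. 5 are shown because their genes carry the results that follow: Psmd11 (chr11:80428365-80428664, + strand) and Psmd4 (chr3:95042565-95042864, − strand) had the largest rises with cisplatin in muscle, Psmb5 (chr14:54617946-54618245, − strand) and Psmb6 (chr11:70525107-70525406, + strand) are constitutive catalytic subunits, and Psme1 (chr14:55578244-55578543, + strand) is an interferon-responsive activator that fell while most subunits rose. Sequences read 5′ to 3′ on the gene's strand. Capitals mark a match to TGACNNNGC, the antioxidant response element core that the proteasome factor NRF1 (Nfe2l1) can bind, in Psmb5 and Psmb6, and a match to GAAA, any 2 bases and GAAA, the interferon-stimulated response element core, in Psmd4 and Psme1.
Psmd11: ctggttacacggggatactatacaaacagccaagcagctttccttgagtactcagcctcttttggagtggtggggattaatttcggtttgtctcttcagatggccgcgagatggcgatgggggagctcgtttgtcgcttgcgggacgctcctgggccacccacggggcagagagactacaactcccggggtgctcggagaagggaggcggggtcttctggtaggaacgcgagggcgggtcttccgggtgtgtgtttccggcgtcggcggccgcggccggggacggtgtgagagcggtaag
Psmd4: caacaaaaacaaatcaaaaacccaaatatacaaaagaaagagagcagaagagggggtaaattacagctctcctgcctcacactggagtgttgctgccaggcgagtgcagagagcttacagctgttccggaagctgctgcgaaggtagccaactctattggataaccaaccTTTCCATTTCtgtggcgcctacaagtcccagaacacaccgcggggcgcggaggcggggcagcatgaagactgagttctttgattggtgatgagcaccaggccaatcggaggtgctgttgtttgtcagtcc
Psmb5: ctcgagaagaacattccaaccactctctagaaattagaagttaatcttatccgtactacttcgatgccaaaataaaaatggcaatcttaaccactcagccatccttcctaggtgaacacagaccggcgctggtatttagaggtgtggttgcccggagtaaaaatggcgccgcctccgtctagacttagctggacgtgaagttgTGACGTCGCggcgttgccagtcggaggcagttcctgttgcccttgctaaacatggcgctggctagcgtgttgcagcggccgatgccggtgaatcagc
Psmb6: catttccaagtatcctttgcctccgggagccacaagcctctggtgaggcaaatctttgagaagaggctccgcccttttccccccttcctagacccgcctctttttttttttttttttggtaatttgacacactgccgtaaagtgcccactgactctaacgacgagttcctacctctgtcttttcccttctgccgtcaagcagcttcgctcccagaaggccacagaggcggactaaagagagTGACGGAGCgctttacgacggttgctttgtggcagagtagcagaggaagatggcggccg
Psme1: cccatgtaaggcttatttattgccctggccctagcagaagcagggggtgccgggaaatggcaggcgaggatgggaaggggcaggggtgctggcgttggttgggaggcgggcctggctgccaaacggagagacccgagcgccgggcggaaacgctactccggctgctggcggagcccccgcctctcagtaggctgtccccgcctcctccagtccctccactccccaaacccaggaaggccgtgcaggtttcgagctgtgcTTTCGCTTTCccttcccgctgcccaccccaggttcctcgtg
Both strands were searched. TGACNNNGC was found in 6 of the 42 windows (14.3%), against 14% of 27025 promoters of the same length. The interferon element core was in 5 windows (11.9%) against 3.99% of all promoters, and the 5 genes were Psmb3, Psmd4, Psmd9, Psme1 and Psmg4. TTCNNNGAA, the gamma-activated site core, was in 3 (7.14%, all promoters 9.55%), CCAAT in 15 (35.7%, all promoters 41.1%), and TGACGTCA, the cAMP response element, in 0 of 42 (all promoters 2.03%). Each match is a description of letters in a window and not a site of binding. The printed Psmd11 window holds none of these 5 motifs.

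Without drug, proteasome mRNA was present in every tissue. The summed level of the 50 genes ran from 1065 and 1068 CPM in the 2 pancreas libraries and 2857 and 3046 in parotid gland to 8927 and 9197 CPM in thymus. Brain held 3066 and 3014 CPM, liver 7511 and 7349, kidney 7554 and 7732, and adrenal gland 7928 and 8189. Pancreas was the lowest tissue on this scale, and parotid gland and brain, which came next, overlapped.

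Each tissue was then tested against the mean of the other 23, with a call set at an adjusted p under 0.05 and at least a 2-fold difference. Of 1200 tests of the 50 genes, 141 were called, 94 higher and 47 lower, where 17.2% of all tests were called higher and 8.05% lower. The 31 core genes (alpha and beta rings in their constitutive form, ATPases and the other 19S subunits) gave 51 calls in 744 tests. 7 genes were called in no tissue: Psma2, Psmd5, Psmd10, Psmd13, Psmd14, Psmg2 and Psmg4. Over the 23 tissues other than pancreas, the level of a core gene correlated with the mean of the core at r = 0.41 to 0.92 (median 0.77), a description in which the points share library scaling.

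Skeletal muscle had 21 members called higher and 3 lower (background 17.1% and 13%), and liver 19 and 1 (background 15.4% and 14.2%). Both depend on the scaling: with column sums alone, muscle had 4 higher and 10 lower, and liver 3 and 2. The median of all genes moved by column sums to -0.97 in muscle, -0.81 in liver and -2.58 in pancreas, and pancreas went from 2 higher and 5 lower members (background 11.4% and 9.42%) to 1 and 46. Brain had 0 higher and 6 lower (background 21.5% and 13.1%), and 18 lower with column sums. Psmd6, a 19S subunit, was called higher in pancreas at 2.101 ± 0.0987 after TMM scaling and lay at -0.46 with column sums.

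**Figure D1:**
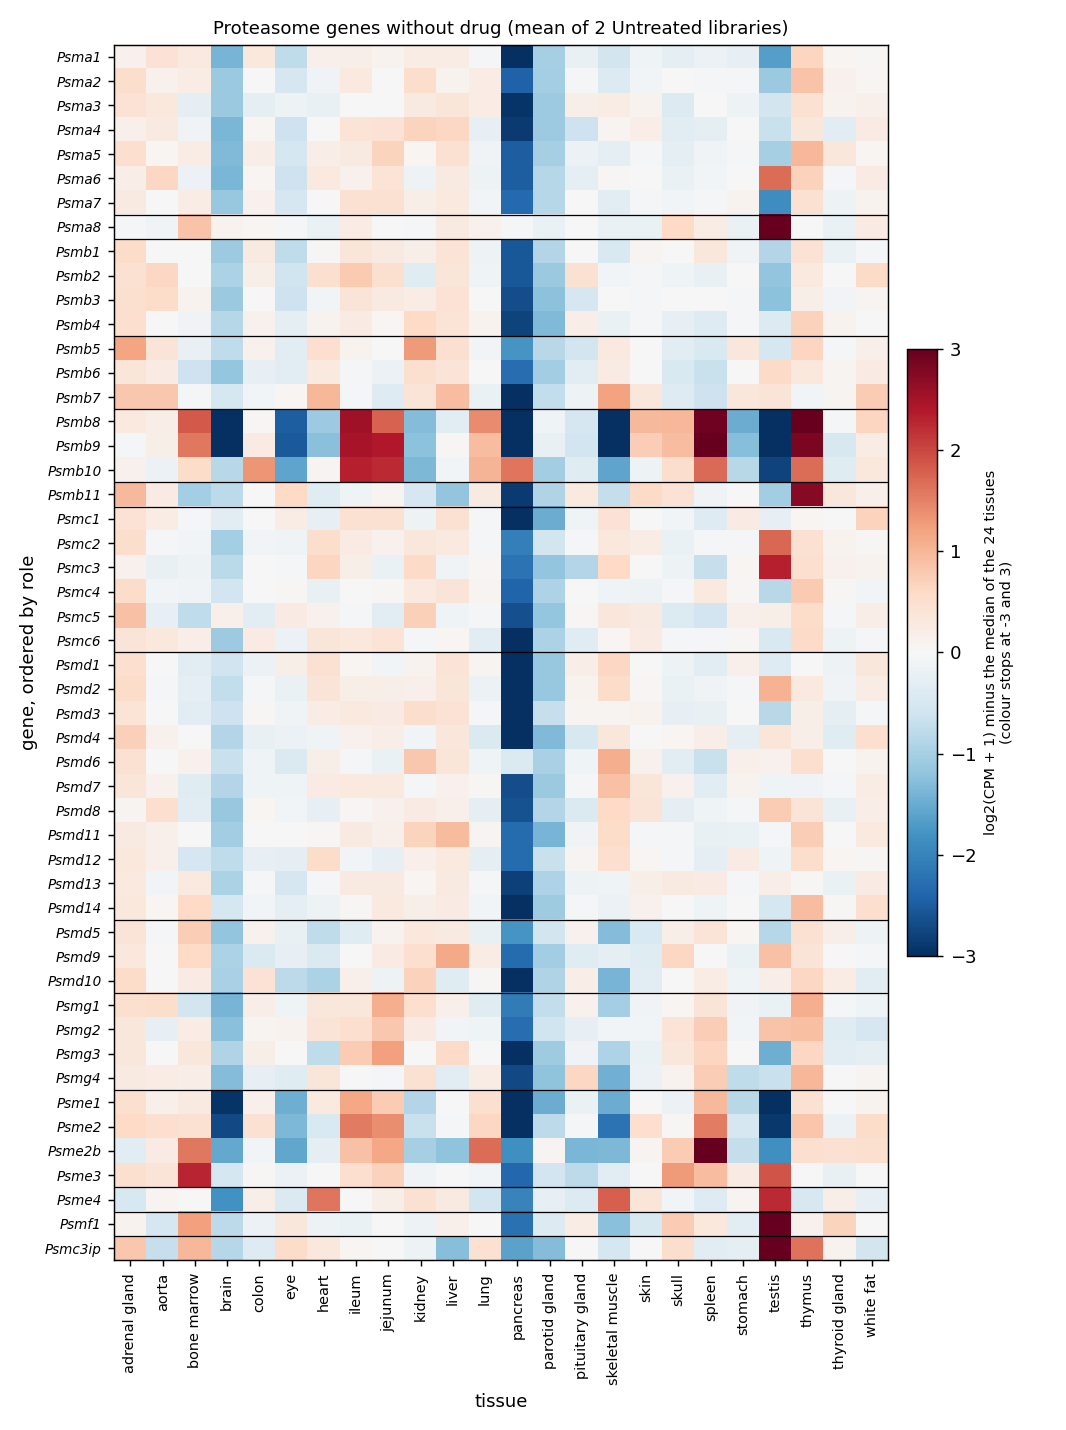
Heat map of the 50 genes (vertical, by role) over the 24 tissues of Untreated mice (horizontal). Colour, which stops at -3 and 3, is the log2 of the mean CPM of 2 libraries plus 1, less the gene's median over tissues. The immunoproteasome genes are high in thymus and spleen and low in testis, Psma8, Psmc3 and Psmf1 are high in testis, and pancreas is low for most genes on this column-sum scale.

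Among the immunoproteasome genes, Psmb8 was at 578 and 601 CPM in thymus and 384 and 372 in spleen, and at 3.62 and 1.55 in testis, with a median of 49.3 over tissue means. It was called higher in 6 tissues and lower in 7, at 3.60 ± 0.10 in thymus and -4.12 in testis. Psmb9 was highest in spleen at 310 and 364 CPM, followed by thymus at 282 and 269, and these 2 tissues did not overlap. Its testis libraries held 1.39 and 1.55 CPM. Psmb10 was highest in ileum (183 and 159 CPM) and jejunum (187 and 132), which overlapped. In pancreas Psmb10 was called higher at 4.18 after TMM scaling. Its neighbour Ctrl, a pancreatic protease gene on the same strand, lies 1873 bases away, and whether its reads enter the Psmb10 count was not tested.

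The share of Psmb8 in the counts of Psmb8 and its constitutive counterpart Psmb5 ordered the tissues. It was 63.2% and 64.8% in spleen, 56.2% and 56.3% in thymus, and 49.0% and 47.2% in ileum. Bone marrow (43.6% and 40.0%), jejunum (40.1% and 32.8%), lung (31.3% and 33.5%) and skull (30.0% and 29.6%) came next, and bone marrow and jejunum overlapped. The lowest shares were in brain at 1.78% and 1.55%, testis at 1.58% and 0.862%, and skeletal muscle at 1.33% and 1.37%. Leukocyte markers, the sum of 11 genes, were high in the same tissues at 6268 and 5148 CPM in bone marrow, 4512 and 4362 in spleen and 2455 and 2580 in thymus, but ileum held only 516 and 569. In skeletal muscle and testis the markers summed to 32.0 and 35.0 and to 23.7 and 18.6 CPM. The part of leukocytes in the share was not tested. The order is that of Psmb8 and Psmb5 alone. Psmb9 with its counterpart Psmb6 also had its highest share in spleen, at 68.7% and 72.0%. Psmb10 with Psmb7 gave another order, with Psmb10 at 91.2% and 90.8% in pancreas and 20.6% and 22.0% in brain.

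**Figure D2:**
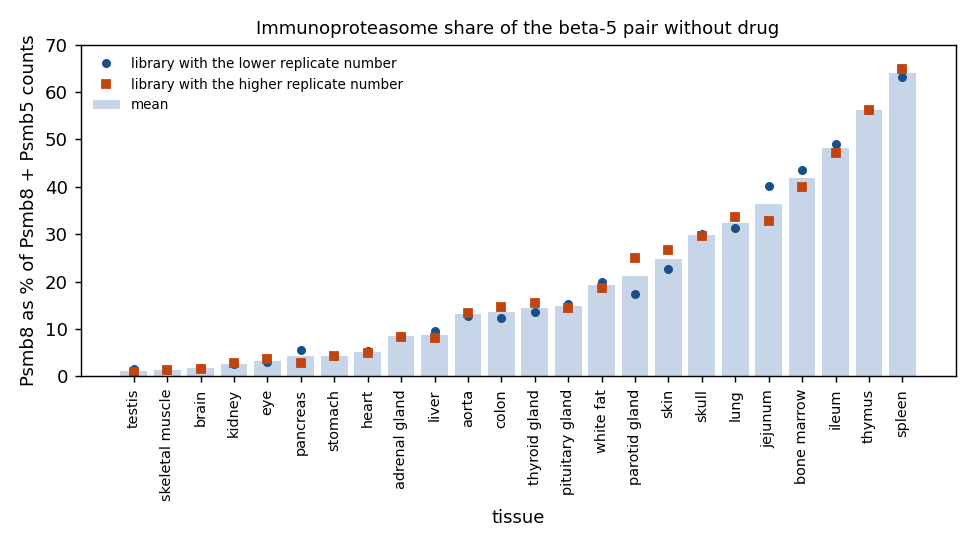
Psmb8 as a percentage of the counts of Psmb8 and Psmb5 (vertical) by tissue (horizontal), with a circle and a square for the 2 Untreated libraries and a bar for their mean. Spleen and thymus lie at 56.2% to 64.8%, and brain, skeletal muscle and testis lie at 0.862% to 1.78%.

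Psmb11, the thymoproteasome subunit, was at 182 and 189 CPM in thymus (2.66 against the other tissues), followed by adrenal gland at 46.4 and 62.5. The median of tissue means was 27.3 CPM, so the count was not confined to thymus. Psmb11 lies beside Psmb5 on the opposite strand and 1675 bases from Cdh24, and the strand used in counting is not given in the sources used here, so its counts outside thymus are uncertain. In the annotation, exons of Psma4, Psmb7, Psmb9, Psmc3, Psmc3ip, Psmd13 and Psme1 overlap those of a coding gene on the opposite strand, and exons of Psmd1, Psme2b and Psmg3 those of one on the same strand, so the levels of these genes are also uncertain.

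Testis used its own forms. Psma8, the alpha subunit of meiotic cells, was at 55.7 and 72.4 CPM in testis and under 1 CPM in 22 of the 24 tissues, a log2 difference of 8.95 ± 0.26. Psmc3, a base ATPase, was at 2418 and 2099 CPM in testis against 687 and 700 in heart, the next tissue. Psmf1, which encodes the inhibitor PI31, was at 284 and 245 CPM in testis (3.92), and its next tissue, bone marrow, held 43.3 and 51.3. The recombinase partner Psmc3ip followed the same order, at 128 and 130 CPM in testis and 9.17 and 12.2 in thymus. Testis had 10 members higher and 10 lower (background 33.8% and 21.8%), and among the lower ones Psma1 was at 20.1 and 30.5 CPM (-1.44) and Psma7 at a mean of 64.1 CPM (-1.71). Psma6 (121 and 126 CPM, 1.90), Psmc2 (132 and 173, 1.81) and Psmd2 (579 and 597, 1.21) were higher in testis. Alpha-ring genes were thus called in both directions. The 4 19S genes called, the subunits Psmc2, Psmc3 and Psmd2 and the assembly chaperone Psmd9, were all higher. Members were called no more often than all genes in either direction, so these calls describe the named genes and not parts of the proteasome.

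The activators differed from one another. Psme4, which encodes PA200, known for histone degradation in sperm precursors, was at 403 and 470 CPM in testis (2.36), 332 and 310 in skeletal muscle (2.72), and called lower in brain (-1.40). Psme3, the nuclear PA28 gamma, was highest in bone marrow at 155 and 145 CPM (2.22) and second in testis at 121 and 107. Psme1 and Psme2, the interferon-responsive PA28 alpha and beta, were highest in ileum at 118 and 110 and at 389 and 372 CPM, overlapping spleen for Psme2, and lowest outside pancreas in testis (-3.08 and -2.76). Psme2b, the Psme2 copy, was highest in spleen at 29.6 and 35.8 CPM (4.34).

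Of the constitutive subunits, Psmb5 was highest in kidney at 698 and 715 CPM (1.21). Psmb7 was highest in skeletal muscle at 224 and 229 CPM, followed by heart at 191 and 198 (1.23), and its exons overlap those of Nek6. Skeletal muscle also led for the 19S genes Psmd6 (154 and 159 CPM) and Psmd7 (196 and 199 CPM, 1.90), while liver led for Psmd11 (686 and 594 CPM) and the assembly chaperone Psmd9 (30.1 and 37.6 CPM, 1.79).

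The number of member calls differed between drugs. Of 1116 member tests per drug, cisplatin against CMCTween gave 90 higher and 50 lower (background 5.6% and 5.53%), and APAP against the mean of Untreated and Sucrose gave 33 higher and 130 lower (4.83% and 5.12%). Sofosbuvir against the same controls gave 11 and 42 (1.19% and 1.08%). In set B, where each drug was set against the mean of the other 4, asenapine gave 30 and 14 (2.38% and 2.29%), risedronate 12 and 15 (0.915% and 1%), olanzapine 11 and 16 (1.96% and 1.3%), lurasidone 4 and 10 (1.1% and 0.531%) and alendronate 3 and 1 (0.406% and 0.298%). Against CMCTween, aripiprazole gave 14 and 5 (0.92% and 0.535%), Repatha 8 and 4 (0.509% and 0.476%), EMPA 3 and 4 (0.326% and 0.388%), clozapine 2 and 2 (0.373% and 0.303%), Dox 2 and 2 (0.466% and 0.528%), teriparatide 1 and 2 (0.349% and 0.302%) and lenalidomide 2 and 0 (0.0523% and 0.0656%). With column sums the split moved to 40 and 110 for APAP, 108 and 43 for cisplatin, 14 and 34 for sofosbuvir, 42 and 8 for asenapine, 16 and 13 for risedronate, 12 and 9 for aripiprazole, 5 and 26 for Repatha, 6 and 3 for clozapine, 1 and 4 for EMPA, 4 and 2 for alendronate and 1 and 6 for teriparatide.

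**Figure D3:**
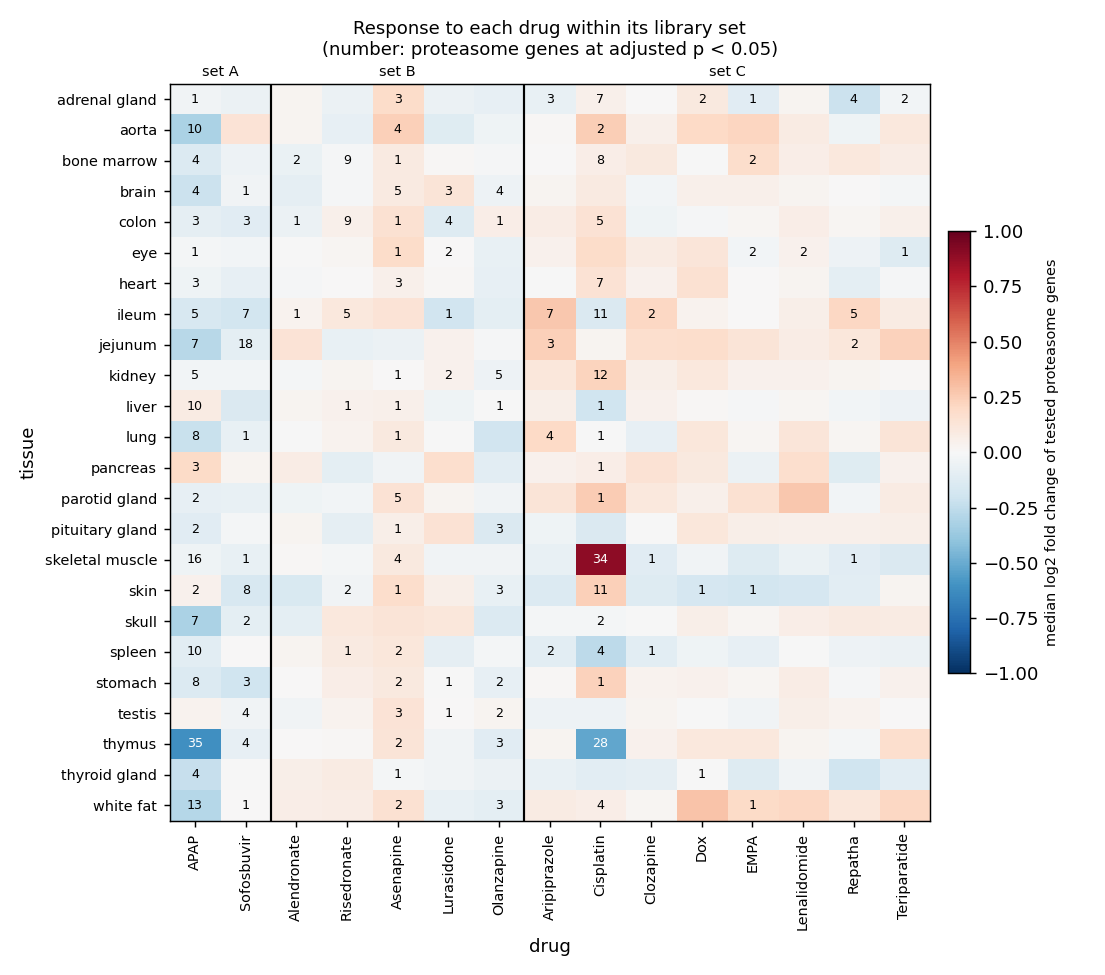
Heat map of tissues (vertical) by drugs (horizontal, in library sets A to C). Colour is the median log2 fold change of the members tested, and the number is how many were called in either direction. Cisplatin in skeletal muscle is the one strongly positive field, with 34 calls, and thymus is negative with APAP (35 calls) and cisplatin (28 calls).

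With cisplatin, skeletal muscle held more mRNA of the constitutive 20S and 19S subunits among the members. All 31 core genes were called higher, and of the 45 members tested 33 were higher and 1 lower, where 19% of all genes were called higher and 17.2% lower. The median member difference was 0.89, against 0.00 for all 8579 genes tested. The groups of 2 libraries did not overlap for 41 members, 39 of them higher and 2 lower, where 38.2% of all genes tested lay apart and higher and 28.6% lay apart and lower. Members not tested for low counts were Psma8, Psmb8, Psmb9, Psmc3ip and Psme2b. The 50 genes summed to 5863 and 5963 CPM with CMCTween and 14189 and 14204 with cisplatin.

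The largest rises were in the 19S cap. Psmd11, a scaffold subunit of the lid, was at 260 and 261 CPM with CMCTween and 1136 and 1188 with cisplatin (2.07 ± 0.11, adjusted p = 2.64e-16). Psmd4, the ubiquitin receptor, went from 235 and 212 to 871 and 824 CPM (1.84 ± 0.12, adjusted p = 3.61e-14). Psmd8, a lid subunit, went from 342 and 364 to 1221 and 1258 CPM (1.73 ± 0.12, adjusted p = 9.1e-14). In each of these the 2 groups were far apart and the libraries within a group were close. The other large 19S rises were the base ATPases Psmc2, at 168 and 168 against 503 and 489 CPM (1.47 ± 0.12), and Psmc4, at 71.5 and 60.4 against 194 and 194 (1.47 ± 0.17), and the subunit Psmd3, at 99.8 and 114 against 320 and 302 (1.45 ± 0.13).

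In the 20S core, all 7 alpha genes rose (median 1.22) and all 4 non-catalytic beta genes (median 1.25). Psma7 went from 313 and 319 to 979 and 977 CPM (1.54 ± 0.11, adjusted p = 2.55e-13), and Psmb4 from 199 and 172 to 547 and 494 (1.40 ± 0.12, adjusted p = 2.26e-11). Psmb2 went from 19.8 and 27.0 to 61.6 and 80.3 CPM. The 3 constitutive catalytic genes rose as well (median 0.79), with Psmb5 from 138 and 139 to 262 and 232 CPM (0.74 ± 0.12, adjusted p = 3.89e-06), Psmb6 from 112 and 114 to 221 and 196 (0.79 ± 0.15) and Psmb7 from 135 and 152 to 255 and 282 (0.82 ± 0.13). The 6 ATPases had a median of 1.11 and the 11 other 19S subunits 1.12. The smallest core rises were Psmd6 at 0.56 ± 0.13, which lost its call when 1 CMCTween library was left out (adjusted p = 0.0666), and Psma3 at 0.63.

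Outside the core, the activator Psme4 rose from 508 and 497 to 780 and 954 CPM (0.70 ± 0.11, adjusted p = 4.36e-06), and the chaperone Psmg4 from 2.82 and 4.08 to 13.8 and 7.79 (1.51 ± 0.58, adjusted p = 0.0402). Psme1 was the only member lower, at 40.5 and 31.9 against 25.8 and 19.8 CPM (-0.75 ± 0.24, adjusted p = 0.0154), and its call was lost in 2 of the leave-one-out fits. Psmb10 was at 4.71 and 6.53 against 5.65 and 3.59 CPM (-0.38) and was not called. None of the 3 chaperones Psmd5, Psmd9 and Psmd10, at 0.37, 0.55 and 0.23, was called, and Psmf1, at 0.68, had an adjusted p of 0.149.

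The ubiquitin genes of the same muscle moved as follows. The muscle ligases Fbxo32, Trim63 and Fbxo30, which mark proteins for degradation in wasting muscle, summed to 1079 and 1453 CPM with CMCTween and 17028 and 20422 with cisplatin. Fbxo32 rose by 3.62 ± 0.20 and Trim63 by 4.06 ± 0.23. Ubiquitin and E1 genes summed to 2551 and 2807 against 9011 and 13831 CPM, of which 3 of 5 tested rose. In the pathway that processes NRF1, 4 of 5 tested genes rose (Nploc4 1.81, Ufd1l 1.13, Ngly1 0.82, Vcp 0.77), and Nfe2l1 itself, at 0.20, had an adjusted p of 0.216. Of 14 associated genes tested, 9 rose and 1 fell, among them the deubiquitinase Usp14 (1.16) and the ubiquitin receptor Adrm1 (1.44) higher and Shfm1, a 19S subunit, at -0.75. Leukocyte markers were at 22.9 and 54.6 against 11.9 and 16.8 CPM. The core sums of all other muscle groups lay between 3987 and 7253 CPM.

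**Figure D4:**
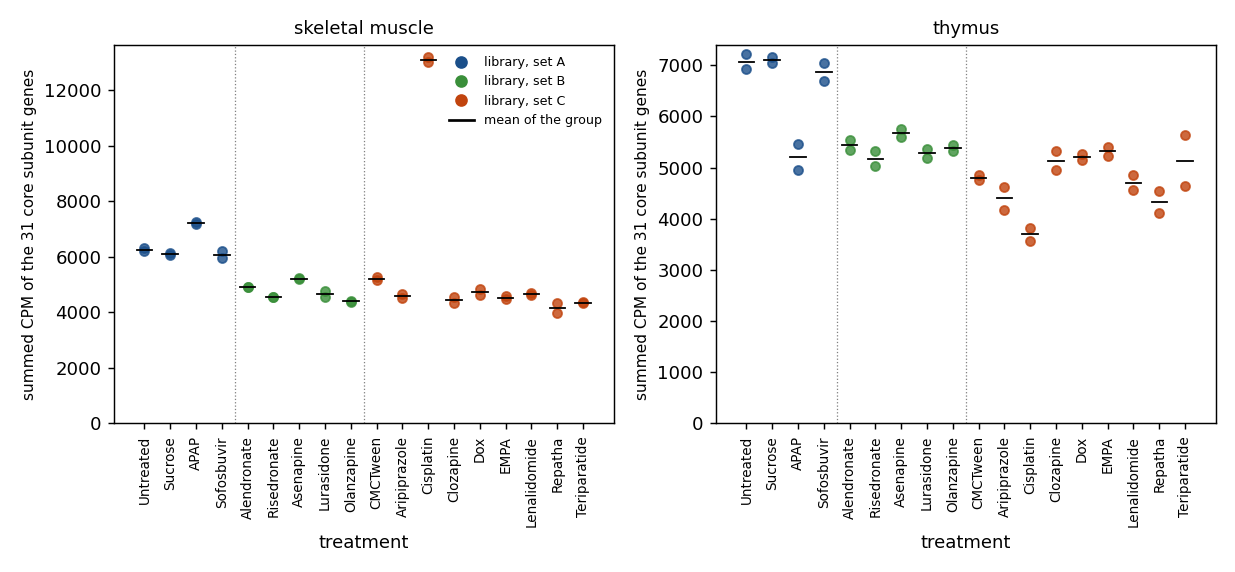
Summed CPM of the 31 core subunit genes (vertical) in every library of skeletal muscle and thymus, by treatment (horizontal), coloured by library set, with a line at each group's mean. Cisplatin muscle lies at 13020 and 13186 CPM, above every other muscle library. In thymus, APAP lies at 4943 and 5465 CPM, below the other libraries of set A, and cisplatin at 3569 and 3826, the lowest of all.

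With APAP, 8 of 45 muscle members were called higher and 8 lower, where 12.6% and 15.5% of all genes were called, with a member median of -0.05. Psma1 was at 120 and 96.0 CPM with APAP and 46.6 to 56.1 in the controls (0.85). Psmd11 was at 646 and 812 CPM against 364 to 515 in the controls (0.60), and Psme4 at 577 and 660 against 310 to 436 (0.55). Lower were Psmb3 (-0.53), Psmb6 (-0.36), Psmb5 (-0.24), Psmc3 (-0.45) and Psme1 (-0.89). With column sums the split was 14 higher and 1 lower, where 1639 of all 8579 genes tested were called higher and 717 lower. With DESeq2 the split of members was 7 and 2. The muscle ligases summed to 12164 and 13594 CPM with APAP against 734 to 1303 in the controls, and all 3 rose.

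The difference between the 2 muscle responses was tested in the same fit, a comparison chosen after seeing the data, with the responses taken against different controls in different library sets. 28 of 45 members were above with cisplatin and 0 below (background 9.34% and 6.61%), with a median of 0.97. Psmd4 differed by 1.59 ± 0.16, Psmb4 by 1.56 and Psmd11 by 1.47. Psme4 did not pass, at 0.15 ± 0.14, nor did Fbxo32, at 0.24 ± 0.24 (adjusted p = 0.553), or Trim63, at 0.11 (adjusted p = 0.847). Missing the threshold does not show that the ligase responses were alike.

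In thymus more members were called lower than higher, with APAP and with cisplatin. For APAP, 34 of 49 members were lower and 1 higher (background 15.4% and 10% in that order), with a median of -0.61 against 0.00 for all genes tested. 48 of the 49 lay below 0. The core summed to 4943 and 5465 CPM with APAP and 6917 to 7220 in the 4 controls. With column sums 19 were lower and 1 higher, where 1008 of all 10839 genes tested were called lower and 2055 higher. Against Sucrose alone 26 members were lower and 0 higher. The call count fell to 16 without 1 APAP library.

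Psmb5 was at 230 and 197 CPM with APAP, 332 and 303 with Sucrose and 450 and 467 in Untreated mice (-1.07 ± 0.13, adjusted p = 2.81e-08). Psma7 was at 198 and 197 CPM against 333 and 302 and 318 and 329 (-0.93 ± 0.12, adjusted p = 3.87e-08). Psmc3 was at 353 and 323 CPM against 527 and 525 and 636 and 624 (-0.99, adjusted p = 1.9e-08). In all 3 genes both APAP libraries lay below the 4 controls. Psmb11 was at 118 and 107 CPM against 212 and 216 and 182 and 189 (-1.05 ± 0.13, adjusted p = 5.31e-08), and Psmb8 at 352 and 296 against 406 and 382 and 578 and 601 (-0.80, adjusted p = 8.12e-05). The calls of Psmb9 (-0.53) and Psmb10 (-1.01) were lost without 1 APAP library. Psme4 was the 1 member higher, at 133 and 157 against 108 and 96.4 and 69.2 and 62.8 CPM (0.59 ± 0.15, adjusted p = 0.00183), which did not pass without 1 APAP library (adjusted p = 0.101).

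Thymic epithelium markers were at 629 and 865 CPM with APAP and 1806 to 2147 in the controls, of which 3 of 4 fell. Leukocyte markers were at 3245 and 3279 against 2422 to 2580 CPM, and antigen processing genes at 3449 and 3485 against 1969 to 2137. The epithelium markers fell as the members did, while the leukocyte and antigen processing sums rose. Of 10 leukocyte markers tested, however, 1 was called higher and 1 lower. Of 10 antigen processing genes, 4 were called higher and 0 lower. The part of these lists in the member result was not tested.

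With cisplatin in thymus, 26 of 49 members were lower and 2 higher (background 21.8% and 22.1%), with a median of -0.52. Groups did not overlap for 38 members, 8 of them higher and 30 lower, where 41% of all genes tested lay apart and higher and 30.6% lay apart and lower. Psmb11 was at 36.7 and 39.6 CPM against 115 and 101 with CMCTween (-1.63 ± 0.18, adjusted p = 1.11e-09). Psmb7 was at 25.6 and 40.5 against 63.8 and 77.2 CPM (-1.17), and Psme3 at 26.7 and 25.0 against 52.5 and 57.6 (-1.21). Psma6, at 107 and 99.0 against 161 and 225 CPM fell by 1.02 on the log2 scale, and Psmc4 was at 56.7 and 62.0 against 103 and 115 CPM. Psmb5 was at 53.4 and 62.0 against 90.4 and 91.6 CPM (-0.77). The 2 members that rose were Psme2, at 106 and 134 against 79.9 and 45.8 CPM (0.76, adjusted p = 0.00384), and its copy Psme2b (1.58, adjusted p = 0.0153). The immunoproteasome genes Psmb8 (-0.12), Psmb9 (-0.19) and Psmb10 (-0.52) were not called, and for Psmb8, at 139 and 172 against 173 and 135 CPM, the groups overlapped (adjusted p = 0.652). Thymic epithelium markers were at 231 and 280 against 892 and 1008 CPM, of which 2 of 4 were called lower. Leukocyte markers were at 1799 and 2072 against 2552 and 2810 CPM, with 3 of 10 called higher and 4 lower. Antigen processing genes were at 8429 and 11053 against 4053 and 4949 CPM, with 6 of 10 called higher and 1 lower. Rag1, the T cell precursor recombinase, was at 11.1 and 42.2 CPM with cisplatin and 1723 and 1761 with CMCTween. The part of these cells and gene lists in the cisplatin member result was not tested.

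Set side by side, the 2 thymus responses differed for 9 of 49 members, tested in the fit of the tissue, with 8 above and 1 below for cisplatin (background 11.9% and 11.1%). This comparison was chosen after seeing the data, and the responses were taken against different controls in different library sets. Psmc5 differed by 1.51 ± 0.37, Psme2 by 1.45 ± 0.27 and Psmd11 by 0.92 ± 0.20, and Psme4 by -0.79 ± 0.21. The difference was not called for Psmb5 (0.29 ± 0.24).

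**Figure D5:**
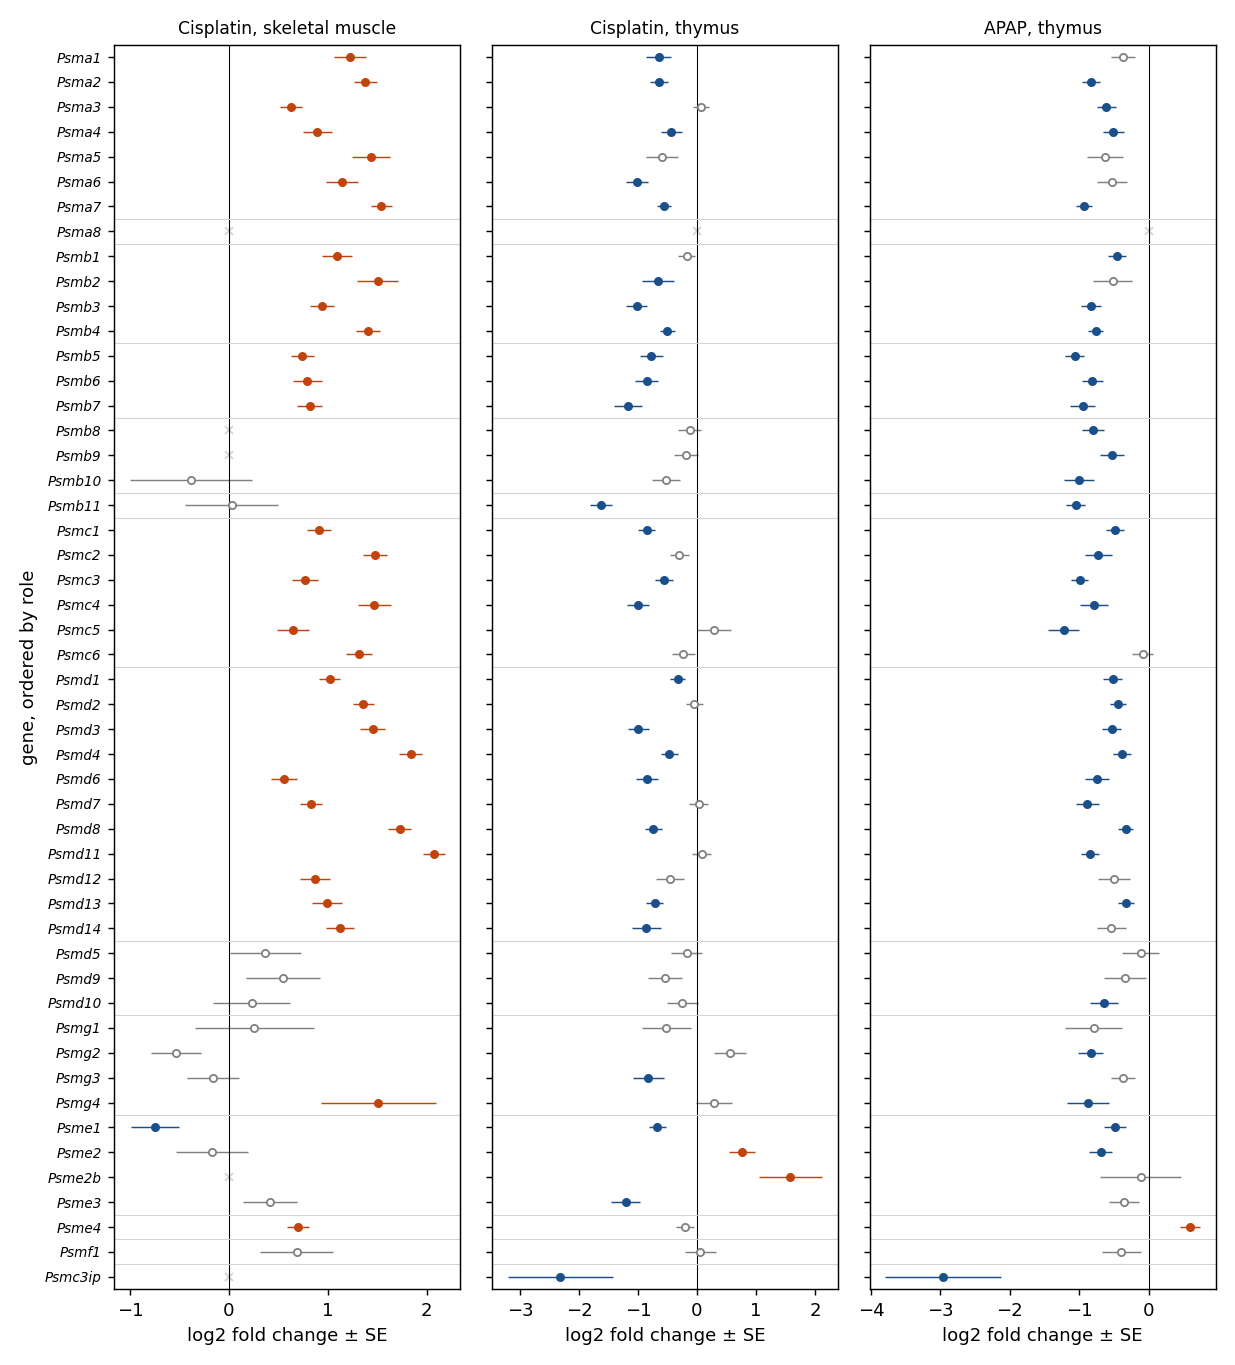
Log2 fold change ± SE (horizontal) of each member (vertical, by role) for cisplatin in skeletal muscle, cisplatin in thymus and APAP in thymus. Filled points, red for higher and blue for lower, had an adjusted p under 0.05, open points did not, and grey crosses at 0 mark members not tested. In muscle all 31 core genes lie to the right of 0, and in both thymus panels most members lie to the left.

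To ask whether the muscle and thymus responses differed from those of other tissues, each was set against the mean response of the other 23 in a joint fit. For cisplatin, 30 of 50 members were above the other tissues in skeletal muscle and 0 below (background 5.91% and 3.95%), led by Psmd4 (1.75) and Psmd11 (1.74). In thymus 1 was above and 22 below (background 7.05% and 7.57%), with Psmb11 at -2.09 and Psmb7 at -1.46. For APAP, 19 were below and 0 above in thymus (background 5.02% and 3.63%), with Psmb11 at -1.27, and 4 were above and 0 below in muscle (background 2.8% and 3.36%).

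Sofosbuvir in jejunum gave 7 members higher and 11 lower of 48 (background 7.39% and 5.59%), and without libraries 3 and 4 it gave 2 and 13. With the fit restricted to the libraries of the set, edgeR's quasi-likelihood test called 0 of 47, and 19 had an unadjusted p under 0.05. Psmb8 was at 28.0, 48.6, 68.7 and 68.1 CPM in libraries 1 to 4 against 115 and 107 with Sucrose and 217 and 124 in Untreated mice (-1.36 ± 0.26, adjusted p = 0.00135), and the difference was -1.74 without libraries 3 and 4. Psmb5 was at 140, 209, 149 and 151 CPM against 239 to 324 (-0.74, and -0.54 without libraries 3 and 4, which was still called). Psmd1, a 19S subunit, was at 93.7 and 89.1 CPM in libraries 1 and 2 and 293 and 295 in libraries 3 and 4, against 82.3 to 98.0 in the controls, and its difference of 1.09 became 0.14 without libraries 3 and 4 (adjusted p = 0.603). Psmc2 and Psmc4 had the same form, at 40.6, 48.6, 149 and 129 and at 30.8, 27.0, 73.2 and 100 CPM, and neither was called without libraries 3 and 4 (0.08 and 0.15). These genes also differed between library sets. In aorta, Psmd1 was at 79.2 to 123 CPM in set A and 217 to 372 in sets B and C. Psmc2 was at 39.7 to 54.0 and 89.1 to 175 CPM in the same order, and for Psmc4 the sets overlapped. Whether jejunum libraries 3 and 4 share the pattern of set A was not tested. In the joint fit over tissues, 11 of 50 members were above the other tissues and 12 below (background 5.49% and 4.25%), and without libraries 3 and 4, a fit added after seeing the data, 4 were above and 15 below.

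Among the other pairs, APAP in WAT gave 1 higher and 12 lower of 47 (background 9.33% and 7.04%), with Psme1 at 23.3 and 25.2 CPM against 52.5 to 56.3 in the controls (-1.15) and Psmb5 at 163 and 148 against 237 to 329 (-0.84). With column sums 1 call was left, where 276 of all 10479 genes tested were called higher and 160 lower. Of the 13 calls, 3 were kept in every leave-one-out fit. APAP in aorta gave 1 and 9 of 47 (3.23% and 3.2%), with Psmb8 at 12.4 and 15.4 CPM against 28.1 to 58.1 (-1.70), and 0 of its 10 calls were kept in every leave-one-out fit. Leukocyte markers were at 408 and 411 CPM in WAT with APAP against 582 to 716 in the controls, and at 100.5 and 106 in aorta against 125 to 166. Acinar markers in aorta were at 93.4 and 787 CPM with APAP against 25.2 to 563. The part of these cells in the 2 results was not tested. APAP in spleen gave 1 and 9 of 48 (5.54% and 5.48%), with Psme4 at 0.80 ± 0.14 and Psmb8 at -0.70 ± 0.13. APAP in liver gave 4 and 6 of 47 (7.7% and 8.78%), with the 19S genes Psmc1 (0.71 ± 0.11), Psmd12, Psmd4 and Psmd7 higher and Psmb9, Psme1 and Psme2 among the lower. Cisplatin in kidney gave 11 and 1 of 47 (11.3% and 11.6%), with Psmd11 at 327 and 298 against 172 and 177 CPM (0.76 ± 0.13, adjusted p = 1.2e-05), and 2 of the 12 calls were kept in every leave-one-out fit. Cisplatin in ileum gave 2 and 9 of 48 (14.7% and 14.5%). With column sums it gave 3 and 3, where 1809 of all 11103 genes tested were called higher and 1382 lower. It gave 1 and 1 with DESeq2 and 1 and 3 with the replicate block. Of its 11 calls, 1 was kept in every leave-one-out fit. Risedronate in bone marrow gave 5 and 4 of 49 (5.83% and 7.21%), where Psme4 was at 58.4 and 74.99 CPM against 96.2 to 175 in the other groups of set B (-0.96, adjusted p = 5.39e-05). None of its 9 calls, by edgeR's quasi-likelihood test, was kept in every leave-one-out fit, and that of Psme4 was lost without 1 risedronate library (adjusted p = 0.0582).

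Psmd11 was also raised by cisplatin elsewhere. It was called higher in 9 of 24 tissues, from 0.40 to 2.07, and lay above 0 in 20 (median 0.35). The other tissues included stomach at 0.73, lung at 0.58 and heart at 0.47. In skin, cisplatin raised 10 of 48 members and lowered 1 (background 7.79% and 7.9%), and the members with the largest muscle rises were among them, with Psmd11 at 1.22 ± 0.20, Psmd4 at 0.89 ± 0.16 and Psmd8 at 0.81 ± 0.14. Psmd2 (0.96 ± 0.14) and Psme4 (0.82 ± 0.15) rose there as well, and Psme2 was the 1 member lower (-0.75 ± 0.25). With asenapine, Psmd8 was called higher in 12 of 24 tissues, from 0.29 to 0.68, and lay above 0 in all 24. In aorta and skeletal muscle, among others, asenapine libraries carried other replicate numbers than the rest of set B. Over all members and tissues, the 44 asenapine calls became 22 with a replicate block and 29 with no filter. With olanzapine, Psmc1, a base ATPase, was called higher in 6 of 24, from 0.48 to 0.61. In the aripiprazole lung, where germ cell markers were high, 4 of 48 members were called higher and 0 lower (background 6.76% and 2.81%), namely Psmf1 (1.49 ± 0.26), Psmc5 (1.34 ± 0.34), Psme2 (0.99 ± 0.25) and Psmc3 (0.65 ± 0.17), and Psmf1 and Psmc3 are genes that were highest in testis without drug. Their part in these calls was not tested.

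In APAP mice, Psme4 was called higher in 13 of 24 tissues and above 0 in 22 (median 0.50), while Psmb8 was called lower in 10 of 20 and below 0 in 19 (median -0.74) and Psmc3 lower in 13 of 24 and below 0 in 23. The controls themselves differed. Sucrose against Untreated gave 44 members higher and 69 lower (background 2.76% and 3.53%), a comparison chosen after seeing the data, with Psmb5 below 0 in 24 of 24 tissues and called in 8 (median -0.37), Psme4 above 0 in 24 of 24 and called in 7 (0.36), and Psmb11 above 0 in 23 of 23 and called in 11 (0.79). Of the 1116 member tests, APAP gave 76 calls against Sucrose alone (background 4.54% in either direction) and 256 against Untreated alone (14.9%), where the mean of both gave 163 (9.95%). With Sucrose alone, Psme4 was above 0 in 21 tissues with 2 calls, Psmb8 below 0 in 20 of 20 with 4 calls, and Psmc3 below 0 in 18 with 4 calls. For sofosbuvir the counts were 20 with Sucrose alone (0.761%) and 162 with Untreated alone (7.48%), against 53 (2.26%).

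The immunoproteasome genes of the intestine differed by drug in set C. In ileum, Psmb8 was at 29.1 and 26.3 CPM with CMCTween, 101 and 114 with aripiprazole (2.14 ± 0.28), 103 and 97.3 with Repatha (2.09 ± 0.28), 93.0 and 99.1 with clozapine (1.86 ± 0.27) and 103 and 103 with cisplatin (1.83 ± 0.30), all called and all against the same CMCTween libraries. The other drugs of sets B and C lay between 12.6 and 45.1 CPM. In set A, Untreated ileum held 296 and 290 CPM and Sucrose 120 and 93.0. Psmb9 was at 51.2 and 42.1 CPM with CMCTween, 166 and 145 with clozapine (1.81 ± 0.28) and 126 and 132 with aripiprazole (1.66 ± 0.29), and at 65.3 and 67.0 with cisplatin, which was not called. Leukocyte markers of cisplatin ileum were at 1260 and 1326 CPM against 271 and 474 with CMCTween, and their part in the Psmb8 result was not tested. Psmb8 was also called higher in jejunum with aripiprazole (2.21 ± 0.40) and Repatha (1.65 ± 0.41), and with cisplatin in colon (1.59 ± 0.32) and kidney, where it was at 17.1 and 7.67 against 2.22 and 2.32 CPM (2.35 ± 0.67).

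Risedronate and alendronate, which are both nitrogen-containing bisphosphonates, were compared directly. The labels give no dose or time for either. Of 1116 member tests in this 1 pair of compounds, 9 were higher and 10 lower with risedronate (background 1.32% in either direction), with 9 in bone marrow, 6 in colon and 4 in ileum, and none in the other 21 tissues, where 51 of 972 tests had an unadjusted p under 0.05 in edgeR's quasi-likelihood test. Psme4 in bone marrow differed by -1.33 ± 0.21 (adjusted p = 5.2e-06), and Psma4 by -0.95 in ileum, -0.70 in colon and -0.66 in bone marrow. Psmb3 differed by 0.87 in bone marrow, 0.75 in ileum and 0.72 in colon. The median half-width of the 95% interval of a difference was 0.44.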

How the data were processed

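Raw read counts per gene, 1 table per tissue, were deposited by the authors and used as counts. Per the submitters' processing notes, bcl2fastq 2.17, TopHat2 2.1.1, HTSeq 0.9.1 and the mm10 build were used, and the annotation and strand setting are not given in the sources used here. The members and gene lists were chosen with earlier results of these data known. Counts were tested in R 4.3.3 with edgeR 4.0.16 (filterByExpr with a minimum count of 10, TMM scaling, quasi-likelihood F test, Benjamini-Hochberg within a comparison, adjusted p under 0.05). A drug fit held all libraries of a tissue, so that 18 groups shared the spread (18 residual degrees of freedom, 20 in brain and jejunum). Untreated tissues were tested in 1 fit (24 residual degrees of freedom), each against the mean of the other 23, with at least a log2 difference of 1. Named were all members, and in at most 10 pairs of drug and tissue, with at most 4 of 1 drug and at least 5 calls, up to 10 with the largest change. Joint fits over tissues were run for APAP, cisplatin and sofosbuvir, for the described tissues only. No libraries were identical over 442 replicate pairs. Alternatives were DESeq2 1.42.0, RLE size factors, column sums, no filter, a replicate block, other references, the libraries of a set only, and leaving out each library with the dispersion trend of the full fit. 1 count was 1.14 CPM at the median depth. On simulated cisplatin thymus counts of 10123 genes the test recovered 42% of log2 changes of 1 and 95% of changes of 2, with 5.5% of calls false. The simulation gave every gene the same dispersion and changed 100 genes by each amount. The real comparison called 2390 genes higher and 2359 lower of 10839, so these shares need not hold for the data.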

Additional observations from a re-analysis of the deposited data

Results flagged for a closer look

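In 9 pairs of drug and tissue, member responses were tested directly against the mean response of the other 23 tissues with edgeR's quasi-likelihood test. Each joint fit held all genes tested, p-values were adjusted over all of them, and the 50 members were then taken out. The numbers past an adjusted p of 0.05 were 30 for cisplatin in skeletal muscle (5.91% of all genes above the other tissues and 3.95% below) and 23 for cisplatin in thymus (7.05% and 7.57%). For APAP in thymus there were 19 (3.63% and 5.02%). For sofosbuvir in jejunum there were 23, 11 above and 12 below (5.49% and 4.25%), in libraries of which 2 stood apart from the other 2, and 19 without those libraries. The other pairs had few calls, with 5 for cisplatin in ileum (3.29% and 4.74%), 4 for APAP in skeletal muscle (2.8% and 3.36%) and 4 for APAP in WAT (2.97% and 1.88%). Single members passed for cisplatin in kidney (1 above, where 363 of all 16699 genes tested were above) and APAP in aorta (1, where 0.292% of all genes were above and 0.322% below), both with 0 calls when 1 library of the drug was left out in each tissue.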

How the results depend on the processing

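The call counts of set A moved most. Its 216 calls became 418 against Untreated alone and 96 against Sucrose alone, and the 191 calls of set C became 294 against all other groups of the set. Risedronate against alendronate fell from 19 to 12 with DESeq2. In pairs, APAP thymus went to 20 with column sums, sofosbuvir jejunum to 9 with Untreated alone and 0 with libraries of the set only, APAP muscle to 9 with DESeq2, APAP WAT to 5 with Sucrose alone and 1 with column sums, and APAP aorta to 3 and 6 in the same order. Cisplatin kidney went to 6 with DESeq2, and cisplatin ileum to 6 with column sums, 4 with the replicate block, 5 with libraries of the set only and 2 with DESeq2. By edgeR's joint test, counts went to 0 for APAP aorta (column sums, with 6 members at an unadjusted p under 0.05, and the replicate block, with 11), 11 for APAP muscle, 10 for APAP thymus and 1 for cisplatin ileum (column sums). For tissues without drug, column sums gave 199 calls, of which 93 were among the main 141 in the same direction. Tissues compared in Sucrose libraries gave 142 calls (104 shared in this way), and in CMCTween libraries 124 (91 shared). With 1 library of a group left out in every tissue, set A had 109 to 188 calls and set B 81 to 113. Set C had 129 to 201 and the bisphosphonates 4 to 13. For tissues without drug, leaving out a single library gave 136 to 144, against 141. By pair it gave 16 to 35 (APAP thymus), 32 to 33 (cisplatin muscle), 20 to 23 (cisplatin thymus), 12 to 19 (sofosbuvir jejunum), 9 to 16 (APAP muscle), 4 to 13 (APAP WAT), 3 to 9 (cisplatin kidney), 2 to 8 (cisplatin ileum), 0 to 9 (APAP aorta) and 0 to 10 (risedronate bone marrow). In joint fits 1 library of the drug was left out in every tissue. The counts were then 0 (APAP aorta), 4 (APAP muscle), 8 to 15 (APAP thymus), 0 to 3 (APAP WAT), 0 to 2 (cisplatin ileum), 0 (cisplatin kidney), 25 to 27 (cisplatin muscle), 13 to 17 (cisplatin thymus) and 15 to 22 (sofosbuvir jejunum). Psmd6 in pancreas turned to -0.46 with column sums. The cause of these moves was not tested. Differences between replicate numbers correlated at a median r of 0.01 (-0.62 to 0.68) over 1113 pairs of treatments within a tissue, with 158 over 0.1. A median near 0 cannot show that no libraries were paired by number. With a replicate block the count for cisplatin in muscle was 33 against 34. Joint leave-one-out fits for control libraries were not run.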
